A study of Bos taurus with 15 samples.

Results

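The thymocyte-like cells of the newborn (NB) colon were 118 barcodes of 1 single-cell RNA sequencing library. They were chosen by 4 genes of developing T cells, *DNTT*, *PTCRA*, *CD1B*, and *RAG1*, as the barcodes with at least 1 UMI (a counted RNA molecule) of 2 or more of these genes, among barcodes with 500 to 4000 genes and under 50000 UMIs. They made up 2.46% (95% exact binomial interval, 2.04% to 2.93%) of the 4803 NB colon barcodes within these limits, and the 15 libraries of the series held 132361 such barcodes. The series profiled digestive tract tissues, liver, and salivary gland of Holstein cattle, with 11 libraries from NB calves and 4 from adult (AD) cattle, 1 library per tissue and stage. The outer muscle layers of the colon were removed and the rest was dissociated with EDTA, trypsin, and a lamina propria enzyme kit. The NB tissues came from 3 calves and the AD intestine from 1 lactating cow, and the labels do not say which calf gave the colon, so 1 library of 1 tissue stands behind every value below and no test between animals could be made. Intervals cover counting error only.

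T cells are made in the thymus, where progenitors without CD4 and CD8 rearrange their receptor genes with the RAG recombinase, divide once a rearranged beta chain pairs with the surrogate chain encoded by *PTCRA*, and then carry both coreceptors, CD4 and CD8, while the alpha chain is rearranged. *DNTT* encodes terminal transferase, which adds bases at the joined gene segments, and the CD1 family encodes lipid-presenting molecules that mark cortical thymocytes. Cells that pass selection leave the cortex, lose these products, and keep either CD4 or CD8.

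These 118 barcodes, here called members, had 817 to 23125 UMIs (median, 3662) and 511 to 3871 genes (median, 1301), and held 612742 UMIs together. The contrast group, the other CD3E barcodes, comprised the 746 barcodes within the limits with at least 1 UMI of *CD3E*, a chain of the T cell receptor complex, that did not meet the rule, and it was deeper, with a median of 5073.5 UMIs and 4666149 UMIs together. Mitochondrial genes took a median of 8.63% of the UMIs of members and 6.71% of those of the other CD3E barcodes, and 7 members and 30 other CD3E barcodes were at 40% or more. The NB colon library had 62529511 UMIs over 8241 barcodes, within the range of the libraries (17707625 to 129458578 UMIs). NB colon shared 4 to 84 barcode sequences with each other library. Among them were 7 of the members, 1 with each of 7 libraries, and at those barcodes the other libraries held 0 UMIs of the 4 rule genes and 13 of *CD3E*.

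The rule genes are given as a description, since they chose the members. *DNTT* had UMIs in 105 of the 118 members, *PTCRA* in 83, *CD1B* in 65, and *RAG1* in 48. The rule was met by 2 genes in 63 members, by 3 in 45, and by all 4 in 10. The most common pairings were *DNTT* with *PTCRA* alone (31 members), *DNTT* with *PTCRA* and *CD1B* (20), *DNTT* with *PTCRA* and *RAG1* (17), and *DNTT* with *CD1B* alone (16). A member held 2 to 63 UMIs of the 4 genes (median, 9), and 12 members stood at the lowest value of 2. Just outside the rule were 284 barcodes with exactly 1 of the genes, with 1 to 27 UMIs of it (median, 1), of which 155 had *CD1B*, 92 *DNTT*, 28 *PTCRA*, and 9 *RAG1*. Another 7 barcodes had 2 or more rule genes but more than 4000 genes, and 21 had under 500 genes.

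**Figure D1:**
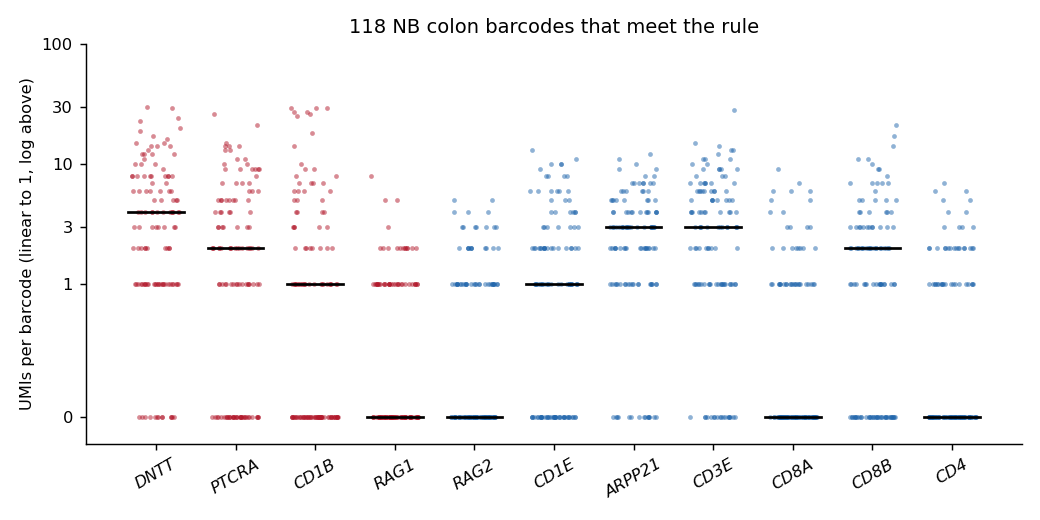
UMIs of 11 genes in each of the 118 members (points; vertical axis linear to 1 UMI and logarithmic above), with the median of each gene as a bar; the 4 rule genes are in red and the others in blue. *DNTT* had a median of 4 UMIs and *ARPP21* and *CD3E* a median of 3, while the medians of *RAG2*, *CD8A*, and *CD4* were 0.

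UMIs of the rule genes were few in the groups of other cell types counted here, which by construction held no member. These groups did not cover every barcode without *CD3E*. Of the 155 barcodes with *CD1B* as their only rule gene, 23 had *CD3E*, and the highest count of *CD1B* was 19 UMIs. *DNTT* was seen in 0 of 218 fibroblast barcodes, which allows a share of up to 1.38% (a floor of 3 counts, used for every bound on a count of 0), and in 5 of 864 epithelial barcodes (0.579%), although these groups were deeper than the members (medians of 6971.5 and 9311 UMIs). *PTCRA* was seen in 2 fibroblast and 3 epithelial barcodes, and *RAG1* in 0 and 1. *CD1B* was seen in 3.40% of the 500 macrophage barcodes (median, 2775 UMIs), more than in fibroblast (1.38%) or epithelial barcodes (0.463%). In the 1171 B cell barcodes (median, 4911 UMIs) *DNTT* was seen in 19 (1.62%), with up to 8 UMIs in 1 of them, and *PTCRA* in 12. The *CD1B* interval of macrophage barcodes (1.99% to 5.39%) was apart from that of epithelial barcodes (0.126% to 1.18%). It overlapped that of fibroblast barcodes (0.285% to 3.97%). The *DNTT* intervals of B cell, fibroblast, and epithelial barcodes overlapped. The contrast of all these groups with the members was fixed by the rule. *CD3E* was seen in 100 of 118 members (84.7%, 77.0% to 90.7%), and the 18 members without it were shallower (median, 1933.5 UMIs, against 4243) and had a higher median mitochondrial share (22.8% against 7.79%).

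Genes outside the rule bore on the label. Of 10 further markers of immature thymocytes, 107 of 118 members (90.7%) had 2 or more, against 245 of 746 other CD3E barcodes (32.8%), although these were deeper. The 10 included *CD4*, *CD8A*, and *CD8B*, which mature T cells also carry. These were seen in 39.8%, 37.3%, and 66.9% of members and in 15.8%, 29.6%, and 28.7% of other CD3E barcodes. *RAG2*, the partner of *RAG1* in the recombinase, was seen in 53 members (44.9%, 35.7% to 54.3%) and 13 other CD3E barcodes (1.74%, 0.931% to 2.96%). *CD1E*, of the CD1 family, was seen in 65.3% of members and 4.42% of other CD3E barcodes, and *ARPP21*, an RNA-binding protein of cortical thymocytes, in 87.3% and 10.2%. In macrophage barcodes *CD1E* was seen in 4.60% and *ARPP21* in none of 500, which allows up to 0.600%. The intervals of members and other CD3E barcodes were apart for all 3 genes. *CD1B*, *CD1B5*, *CD1E*, and *CD1A* are related in sequence, so the split of reads among them is uncertain.

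**Figure D2:**
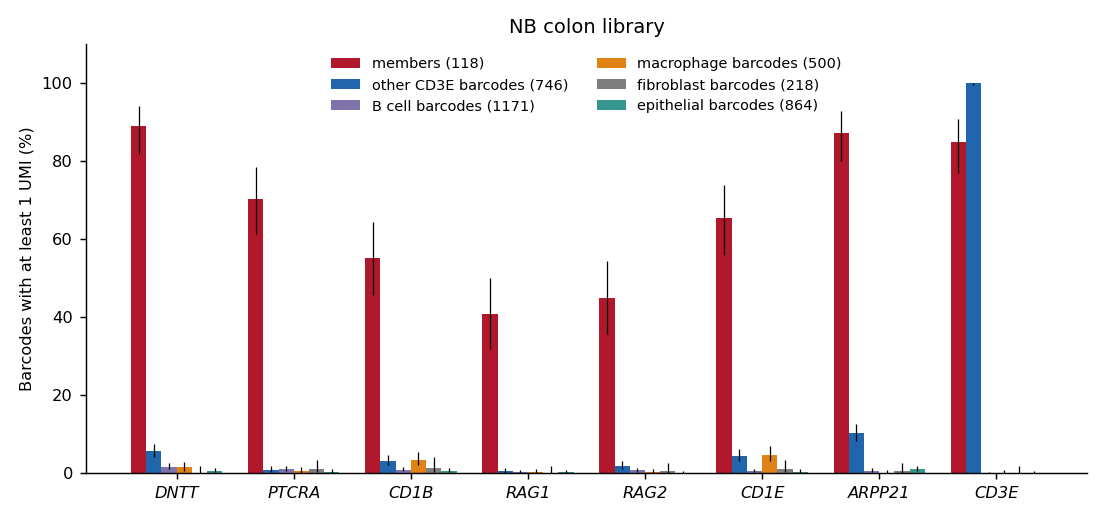
Share of barcodes with at least 1 UMI (percent) of the 4 rule genes, *RAG2*, *CD1E*, *ARPP21*, and *CD3E* in 6 groups of NB colon barcodes, with exact 95% binomial intervals as lines; the number of barcodes is in the key. *CD3E* defines the other CD3E barcodes and is absent by definition from the 4 groups that are not T cells. *ARPP21*, which chose no group, stood at 87.3% in members and 10.2% in other CD3E barcodes.

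The members also lay together when the library was clustered without the 4 rule genes. Of 25 clusters, 1 cluster of 199 barcodes held 111 members (94.1%). On average 68.1% of the 15 nearest neighbors of a member were members, against 3.77% for an other CD3E barcode, where members made up 2.46% of the barcodes. The cluster also held 73 other CD3E barcodes, 47 of which had exactly 1 rule gene. In those 73 barcodes *ARPP21* was seen in 57.5%, *RAG2* in 16.4%, and *CCL5* in 5.48%, against 5.05%, 0.149%, and 34.9% of the 673 other CD3E barcodes outside the cluster. The cluster was also rich in dividing barcodes, those with UMIs of 3 or more mitosis genes, which were 46 of these 73, 50 of the 111 members in it, and 65 of the 673 outside it. The part of division in the grouping was not tested. A different cluster, of 193 barcodes, held 0 members and 26 other CD3E barcodes. In it 96 barcodes had exactly 1 rule gene, which was *DNTT* in 3 of them.

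Markers of other cell types were also counted in the members. The macrophage markers *CSF1R*, *CD14*, *C1QA*, and *C1QB* summed to 387 UMIs, and 2 members had 2 or more of the 4. 1 of these held 229 UMIs of *C1QA*, and 85.1% of all UMIs of the macrophage and neutrophil list lay in 1 member. Lymphatic endothelial genes had 108 UMIs in 1 member, including all 43 UMIs of the chemokine *CCL21*. Both lay among the 7 members outside the main cluster. Of the rest of these 7, 1 had 5 UMIs of *CD79A* and 6 of the B cell gene *MS4A1*, and another 2 of each, both without *CD3E*. A further member without *CD3E* had 15 UMIs of *C1QA*, and 1 had 84.6% mitochondrial UMIs. Early B cell markers (*VPREB1* and *EBF1*), 4 conventional dendritic cell markers (*FLT3*, *CLEC9A*, *XCR1*, and *CLEC10A*), *CD34* of early progenitors, and *FOXN1* and *PSMB11* of thymic epithelium were at 0 UMIs in the members, while the other 2 of the 4 thymic epithelial markers, *PRSS16* and *CCL25*, had 3 and 2 UMIs (8.16 CPM for the 4, against 1.71 CPM in other CD3E barcodes). The early B cell and dendritic markers summed to only 1.07 and 5.14 CPM in other CD3E barcodes. In members 3 UMIs are 4.90 CPM, so these counts of 0 show no difference between the groups. The B cell gene *CD79A* was seen in 36.4% of members and 32.0% of other CD3E barcodes, against 89.3% of B cell barcodes, which *CD79A* helped to choose, 0.917% of fibroblast, and 2.66% of epithelial barcodes, and 50 members had 1 or more of 5 B cell markers and 6 had 2 or more, against 280 and 67 other CD3E barcodes. Plasmacytoid dendritic cell markers were seen in 27 members, 2 of which had 2 or more of the 3. The part of this RNA in the results was not tested.

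Levels were compared as CPM, each gene's UMIs added up over a group's barcodes and scaled to a common total. Deeper barcodes thus weighed more, and the 52 dividing members held 411433 of the 612742 UMIs of members. A gene was called different when (CPM + 5) differed at least 4-fold, among genes with at least 10 CPM in either group. Of 7717 genes compared, 165 (2.14%) were higher in the members and 202 (2.62%) were lower. The exact Poisson intervals of the groups were apart for all of these. At these totals the 4-fold limit leaves little room for overlap, so this adds no support to the calls. It held also for *CCL21*, with all 43 of its member UMIs in 1 member. The median log2 ratio over all genes was 0.20. Scaling by the median ratio took this median to -0.0086 and the counts to 114 higher and 239 lower genes. A pseudocount of 1 CPM gave 309 and 370, and the members of the main cluster against the CD3E barcodes outside it, compared after the data were seen, gave 284 and 321, after leaving out 73 CD3E barcodes of which 46 were dividing. A minimum of 50 CPM gave 136 and 109. Weighting each barcode equally gave 227 and 197. Of the higher genes, 152 were seen in 10 or more members, and 11 had over 50% of their UMIs in 1 member. Of the lower genes, 63 had 0 UMIs in the members.

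The genes with the highest ratios of (CPM + 5) included *CD1E*, *RAG2*, and *ARPP21*. *CD1E* was at 416 CPM (367 to 471) in members against 16.7 CPM (13.2 to 20.9) in other CD3E barcodes, *RAG2* at 155 CPM (125 to 190) against 3.86, and *ARPP21* at 605 CPM (545 to 670) against 33.0. The axon guidance ligand *SLIT1* (147 against 4.29 CPM, 56 members), the cytokine receptor subunit *IL20RB* (184 against 8.57 CPM, 63 members), and the meiosis-associated gene *MNS1* (116 against 3.0 CPM, 42 members) were also among the 6 genes with the highest ratios of (CPM + 5). Each of the 6 was seen in 42 or more members. The fatty acid hydroxylase *CYP2U1* was at 165 against 8.57 CPM, the lipid phosphatase *PLPP3* at 189 against 14.6 CPM, and *ELOVL4*, which lengthens fatty acids, at 80.0 against 4.07 CPM. The receptor *NOTCH3* stood at 127 against 9.22 CPM and *CD1B5* at 70.2 against 1.71 CPM. The phosphatase gene *DUSP13* had 27 UMIs in 20 members and 1 UMI in 1 other CD3E barcode, a ratio of CPM, with no pseudocount, of 206 with an interval of 33.9 to 8418. Of the 15 named genes with the highest ratio, *CCL21* and *MMRN1* were each seen in 1 member, and *CAVIN2* had 42.2% of its UMIs in 1 member.

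Of the 12 genes of recombination and end joining compared, 2 were called higher, *RAG2* and *DCLRE1C* (45.7 against 7.50 CPM), which encodes Artemis, the nuclease that opens hairpin ends. The median log2 ratio of the list was 0.71. *HMGB1* and *HMGB2*, cofactors of the recombinase that are also abundant in dividing cells, had log2 ratios of 1.91 each, and *PRKDC*, a kinase of end joining, 1.29, which did not pass the 4-fold limit. Of 13 cortical thymocyte genes, 4 were called higher (*CD1E*, *ARPP21*, *ELOVL4*, and *CCR9*) and none lower, with a median of 1.59. Only 13 of the 19 genes found passed the minimum of 10 CPM, some of them through the members alone, and with no minimum the median was 0.64. The chemokine receptor *CCR9*, which draws cells to CCL25 in thymus and gut, was at 248 CPM (210 to 291) in members and 34.3 CPM in other CD3E barcodes. The chromatin organizer *SATB1* (214 against 59.4 CPM) had a log2 ratio of 1.77.

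Of 20 T lineage transcription factors, 2 were called higher and none lower, with a median log2 ratio of 0.85. These were *TCF12*, an E protein (124 against 18.9 CPM), and *MYB* (284 against 51.0 CPM). *TCF7*, which commits progenitors to the T lineage, was seen in 98 members and had a log2 ratio of 1.50, and *LEF1*, its relative, 1.77. *ZBTB7B*, the factor of the CD4 lineage, had 0 UMIs in members and 10.1 CPM in other CD3E barcodes, and the CD8 lineage factor *RUNX3* a log2 ratio of -1.39. *FOXP3* of regulatory T cells had 0 UMIs in members and 6 in other CD3E barcodes, too few to compare.

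In the NOTCH list, 2 of 8 genes were higher and 1 lower, with a median of -0.23. *HES1*, a direct NOTCH target, was at 685 CPM (621 to 754) in members against 150 CPM in other CD3E barcodes, and *NOTCH3* was given above. *IL2RA*, which marks early double-negative thymocytes and activated T cells, had 0 UMIs in members and 109 in other CD3E barcodes, so it was at least 4.77-fold lower. Of 10 early progenitor genes, *TRIB2*, a pseudokinase, was higher (127 against 22.1 CPM), while *CD7*, *KIT*, and *CD44* were lower. *KIT*, the stem cell factor receptor, had 2 UMIs in members and 62.8 CPM in other CD3E barcodes. The members thus had 0 UMIs of the early markers *IL2RA* and *CD34* and 2 of *KIT* at this depth.

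Of 18 genes of the CD3 complex and receptor signaling, 1 was higher and 1 lower, with a median of -0.64. *SH2D1A*, the adaptor of SLAM family receptors, was at 273 CPM (233 to 317) in members against 62.1 CPM, and *UBASH3A*, a phosphatase that dampens the receptor, had 1 UMI in the members. *THEMIS*, needed in thymocyte selection, was at 97.9 against 23.8 CPM (log2 ratio 1.84). The levels of *CD3D*, *CD247*, and *LCK* differed less, with log2 ratios of -0.29, -0.05, and 0.47. *CD3E* itself was at 793 and 1210 CPM, but that gene chose the contrast group.

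Genes of mature and effector T cells stood at the other end. Of 14 cytotoxic effector genes, 8 were lower in members and none higher, with a median log2 ratio of -2.51. The median was -1.77 with no minimum, -3.68 with a minimum of 50 CPM, and -3.74 with a pseudocount of 1 CPM. The chemokine *CCL5* had 0 UMIs in 118 members and 1828 UMIs in 239 of the other CD3E barcodes, at least 80.0-fold lower. *NKG7* of cytotoxic granules was at 26.1 against 308 CPM, and *CTSW*, a protease of killer cells, at 55.5 against 771 CPM. *GZMM*, another granzyme, ran the other way (42.4 against 10.9 CPM, log2 ratio 1.57, 18 members) without passing the limit, and *GZMB* had all of its member UMIs in 1 barcode. Of the 15 named genes with the lowest ratio, the adhesion receptor *CD96* was at least 30.6-fold lower. The costimulatory receptors *TNFRSF18* and *TNFRSF4* were at least 27.2-fold and 19.5-fold lower. *IL2RB*, the chain shared by the interleukin 2 and 15 receptors and a gene of the helper cytokine list, was at least 18.4-fold lower. All of these had 0 UMIs in members. *CD7*, a surface protein of T cells and natural killer cells, had 3 UMIs in members (4.90 CPM, 1.01 to 14.3) against 344 CPM.

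Of 15 genes of selection and maturation, 4 were lower and none higher, with a median of -1.61, or -0.89 with no minimum. The lower genes were *CD69*, which holds activated and newly selected cells in tissue (78.3 against 331 CPM), *CCR7*, the lymph node homing receptor (16.3 against 84.9 CPM), *FOXO1*, and *TNFRSF9*, the last 2 with 0 UMIs in members. *IL7R*, the receptor for interleukin 7, was at 60.4 against 160 CPM. Of 10 gut residence and homing genes, 3 were lower (*CXCR6*, *CXCR3*, and *S100A4*), and of 7 helper cytokine and receptor genes 3 were lower (*IL2RB*, *IL13*, and *IL22*), none of either list being higher. *CCR9*, which was called higher, was counted in the cortical thymocyte list and not in the gut list. The effector, maturation, and residence lists all had medians below that of all genes. Among the 15 named genes with the lowest ratio were also the immune GTPase *GIMAP7* under 2 gene identifiers, *GSTP1*, the cyclin *CCND2*, the ubiquitin-like *UBD*, and *ATP1B1*. Within the other CD3E barcodes, 98.97% of the UMIs of *CHGA* and 66.4% of those of *CCL4* came from 1 barcode, and *KLRJ1* was seen in 8 barcodes.

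**Figure D3:**
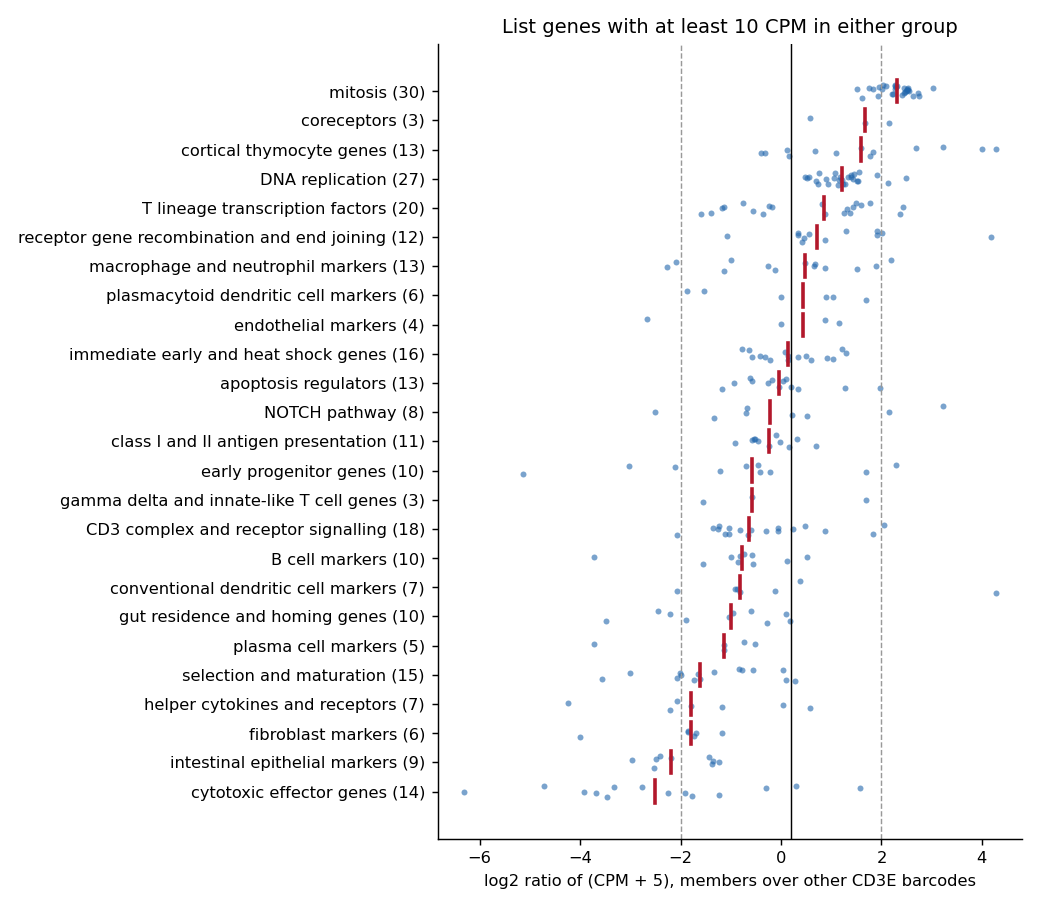
Log2 ratio of (CPM + 5), members over other CD3E barcodes (horizontal axis), for each gene with at least 10 CPM in either group (blue points) in 25 lists with 3 or more such genes; red bars are list medians, the black line is the median of all genes (0.20), and dashed lines mark the 4-fold limits. The mitosis genes all lie right of the black line, while the median of the cytotoxic genes is -2.51.

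Cell division genes formed the list with the highest median among those with 3 or more genes. Of 30 mitosis genes, 24 were higher in members and none lower, with a median of 2.30, and the summed level was 7331 CPM (7118 to 7549) against 1242 CPM (1210 to 1274), a 5.90-fold difference. The ubiquitin-conjugating enzyme *UBE2C* was at 638 against 74.4 CPM, *MKI67*, the Ki-67 antigen, at 702 against 102 CPM, and *TOP2A*, a topoisomerase, at 702 against 124 CPM. Of 27 DNA replication genes, all had log2 ratios above 0, but only *UHRF1* (1067 against 186 CPM) and *RRM2* (212 against 44.6 CPM) passed the 4-fold limit, and the median was 1.22. Members with UMIs of 3 or more mitosis genes, here called dividing, numbered 52 of 118 (44.1%, 34.9% to 53.5%), against 111 of 746 (14.9%, 12.4% to 17.6%). Dividing members were deeper than the rest (medians of 6738 and 2100 UMIs), so barcodes were also thinned to 2000 UMIs each, which left out 35 members and 55 other CD3E barcodes with fewer. Of the 83 members kept, 49 were dividing with all of their UMIs. After thinning, 42 of 83 members (50.6%, 39.4% to 61.8%) and 57 of 691 other CD3E barcodes (8.25%, 6.31% to 10.6%) were dividing. This class is a range on a count, and 21 members and 126 other CD3E barcodes had 2 to 4 mitosis genes, the latter more than the 111 called dividing.

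The coreceptors differed as well. *CD8B* was at 488 CPM in members against 106 CPM, *CD4* at 165 against 48.6 CPM, and *CD8A* at 168 against 111 CPM, of which only *CD8B* passed the 4-fold limit. UMIs of both *CD4* and *CD8A* or *CD8B* were found in 46 of 118 members (39.0%, 30.1% to 48.4%) and 21 of 746 other CD3E barcodes (2.82%, 1.75% to 4.27%). CD8 without CD4 was found in 39 members (33.1%) and 36.3% of other CD3E barcodes, neither in 32 members (27.1%) and 47.9%, and CD4 without CD8 in 1 member and in 97 other CD3E barcodes (13.0%). Of the 83 members with at least 2000 UMIs, 26 had both, and after thinning, 22 of 83 members (26.5%, 17.4% to 37.3%) and 8 of 691 other CD3E barcodes (1.16%, 0.501% to 2.27%) had both. Double-positive barcodes were thus more common and CD4 barcodes without CD8 less common among members at either depth.

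**Figure D4:**
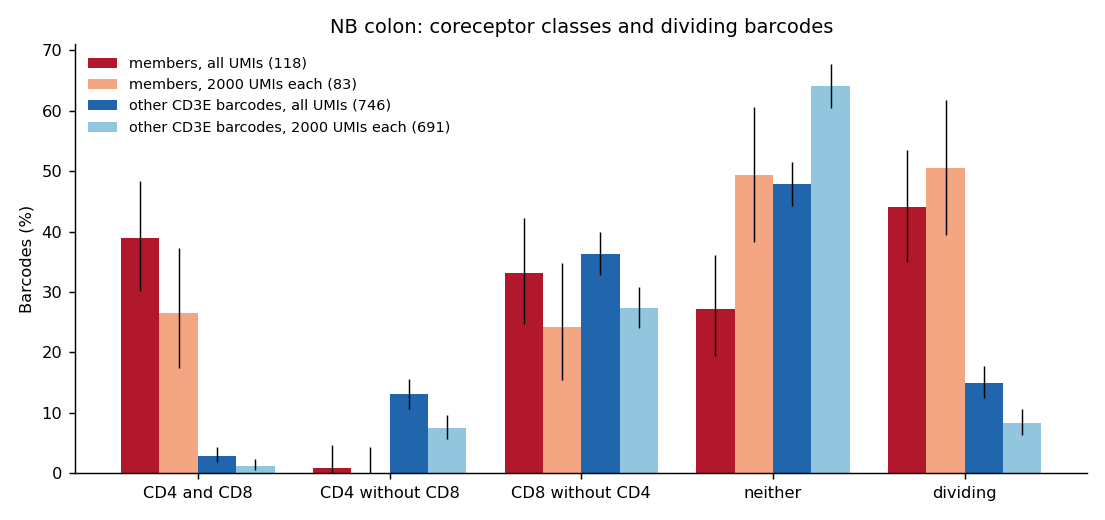
Share of barcodes (percent) in the 4 coreceptor classes and in the dividing class, for members (red) and other CD3E barcodes (blue), with all UMIs (dark) and after thinning to 2000 UMIs each (light); lines are exact 95% binomial intervals and the number of barcodes is in the key. The members stand above the other CD3E barcodes for CD4 and CD8 together and for dividing barcodes at both depths.

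Among the members, coreceptor levels followed the rule genes *PTCRA* and *CD1B*. This split was made after the data were seen, and it is a description. *PTCRA* without *CD1B* was found in 49 members (median, 5054 UMIs), both in 34 (5257.5 UMIs), *CD1B* without *PTCRA* in 31 (1787 UMIs), and neither in 4. *CD4* stood at 17.9 CPM (5.82 to 41.8) in the first set, 197 CPM (144 to 263) in the second, and 625 CPM (458 to 834) in the third. *CD8A* stood at 25.1, 218, and 571 CPM, and *CD8B* at 204, 540, and 1550 CPM in the same order. The shares with both coreceptors were 4 of 49, 18 of 34, and 22 of 31, so the third set, the shallowest, had the highest share. Its median mitochondrial share was 12.5%, against 7.44% and 6.97% in the first and second, and the part of this in the levels was not tested. Thinned to 2000 UMIs they were 1 of 39, 10 of 27, and 10 of 14.

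Other genes differed in level across the same 3 sets. *CCR9* was at 64.5, 278, and 884 CPM, *SATB1* at 93.1, 253, and 571 CPM, and *CD1E* at 233, 454, and 1061 CPM. *ELOVL4* was at 10.7, 133, and 204 CPM, and *CYP2U1* at 32.2, 223, and 503 CPM. All 5 genes were lowest in members with *PTCRA* alone and highest in members with *CD1B* alone. *CD1E* is related in sequence to *CD1B*, which made the split, and the split of reads between them is uncertain. Its rise is therefore not independent of how the sets were made. The inhibitor of E proteins *ID1* ran the other way, at 881 CPM (775 to 998), 587 CPM (493 to 694), and 150 CPM (74.7 to 268). *MYC* and *IL7R* were at 100 and 71.6 CPM in the first set, 94.2 and 64.2 in the second, and 0 UMIs in the third, where 3 UMIs are 40.8 CPM. The exact intervals of the first and the third set were apart for *MYC* and overlapped for *IL7R*. *HES1* was at 813, 630, and 489 CPM, but 22 of its 36 UMIs in the third set lay in 1 barcode. *RAG2* was at 136 CPM (96.3 to 187), 163 CPM (115 to 223), and 231 CPM (135 to 370), with intervals that overlapped, and those of *NOTCH3* (133, 111, and 163 CPM) overlapped as well.

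Dividing members numbered 23 of 49, 20 of 34, and 7 of 31 in the 3 sets, and the summed mitosis level was 7762, 7581, and 6635 CPM. The summed DNA replication level was 4513, 4968, and 2706 CPM, and its interval in the third set (2343 to 3109) was apart from those of the others. The third set was the shallowest, and 1 barcode with lymphatic endothelial genes held 8572 of its 73549 UMIs. The part of that barcode in the levels of this set was not tested.

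**Figure D5:**
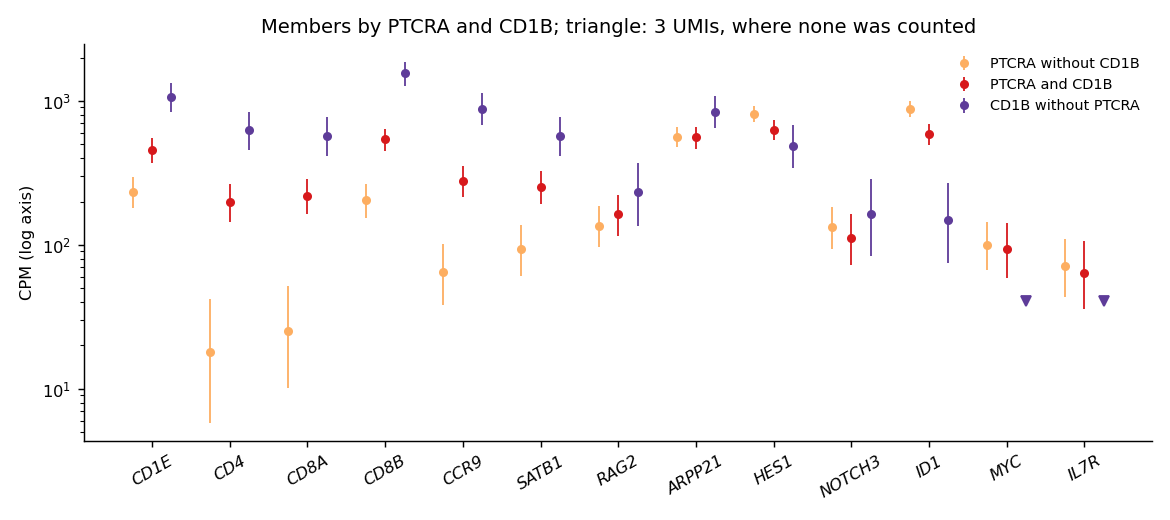
Level (CPM, logarithmic axis) of 13 genes in members with *PTCRA* and no *CD1B* (orange, 49), with both (red, 34), and with *CD1B* and no *PTCRA* (purple, 31), with exact 95% Poisson intervals; triangles mark 3 UMIs where none was counted. *CD4*, *CD8A*, *CD8B*, *CCR9*, and *SATB1* are lowest in the first set and highest in the last, and *ID1* the reverse.

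Clustering the members alone, without the rule genes, gave 3 groups of 45, 39, and 34. All 34 of the last were dividing (median, 7368 UMIs), against 11 of 45 and 7 of 39 in the others, which were shallower (medians of 2704 and 2118 UMIs). Mitosis genes, which define the dividing class, stayed in this clustering. *CDC20* and *UBE2C* were among the leading genes of the group of 34, so its dividing share is no separate result. Both coreceptors were seen in 18, 17, and 11 barcodes of the 3 groups. Double-positive barcodes were thus found in each group. Immediate early and heat shock genes, which respond to dissociation, summed to 42716 CPM in members and 24183 CPM in other CD3E barcodes, with *HSPA1A* at 16723 and 6780 CPM, but none of the 16 genes was called and the median log2 ratio was 0.14. The apoptosis list also had no gene called, *BCL2L1*, a survival factor of double-positive thymocytes, being just under the limit (101 against 22.1 CPM, log2 ratio 1.97) and *BCL2* at 45.7 against 70.3 CPM. The gamma delta list had no gene called, but only 3 of its 12 genes were compared. Its receptor genes *TRDC* and *TRGC1* were not found under these symbols, so they were not measured. Class I and II antigen presentation had no gene called among 11.

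Markers of other cell types in the colon went both ways. Of 9 intestinal epithelial genes 5 were lower, among them *EPCAM* (11.4 against 90.2 CPM), as were 1 of 6 fibroblast genes (*COL3A1*, a collagen) and *JCHAIN*, the joining chain of secreted antibody (32.6 against 496 CPM), in the B cell and plasma cell lists, and none of these 4 lists had a higher gene. In the macrophage and neutrophil list 1 of 13 genes was higher (*C1QA*) and 2 lower, and its summed level was 2.12-fold that of the other CD3E barcodes, 85.1% of it from 1 member as given above. Of 4 endothelial genes 1 was lower, and of 6 plasmacytoid dendritic cell genes none was called. Of 7 conventional dendritic cell genes 1 was higher, *CD1E*, which also stands in the cortical thymocyte list, and 1 lower (*CCR7*), and the 13 genes found summed to 1030 CPM in members and 941 CPM in other CD3E barcodes. The endocytic receptor *LY75*, found on thymic epithelium and dendritic cells, was higher (385 against 54.6 CPM) and was seen in 94 members. It held 236 of the 242 UMIs of the thymic epithelial list in members, and the summed level of that list was 395 against 58.7 CPM.

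Over all 4803 NB colon barcodes, the genes whose level per barcode was most like the mean of the 4 rule genes were *ARPP21* (Pearson's r = 0.67), *CD1E* (0.65), *SLIT1* (0.57), *CCR9* (0.55), *RAG2* (0.54), *IL20RB* (0.53), the unnamed gene ENSBTAG00000039366 (0.49), *CD8B* (0.48), *CD1B5* (0.47), and *MNS1* (0.45). These points share 1 library and most are 0 for every gene, so the values are a description. The likeness was not complete, since *ARPP21* was also seen in 155 barcodes outside the members and *CD8B* in 244.

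Such barcodes were rare in the other 14 libraries. Only 9 of 127558 barcodes within the limits met the rule there, 3 in NB duodenum, 2 in NB cecum, 2 in NB liver, 1 in NB rectum, and 1 in AD duodenum, and none of the 9 barcode sequences occurred in NB colon. The 2 of NB liver had no UMI of *DNTT*, *RAG1*, or *CD3E* but 9 and 10 UMIs of *CD1E*, whereas the other 7 had 1 to 9 UMIs of *CD3E*. Over all CD3E barcodes of a library, *DNTT* was at 167 CPM in NB colon and next highest at 6.78 CPM (4 UMIs) in NB duodenum, with 10 libraries at 0 UMIs. *PTCRA* was at 77.8 CPM and next at 16.9 CPM, also in NB duodenum, and *RAG2* at 20.1 and 6.78 CPM. The other libraries held 38048 CD3E barcodes, 1 to 8236 each, against 846 in NB colon, and 7 of the 14, all from NB calves, held fewer than NB colon. In NB duodenum, 3 of only 108 CD3E barcodes met the rule, against 100 of 846 in NB colon. *CD8B*, which mature T cells also use, was higher in another library than in NB colon (201 CPM in AD colon, against 145 CPM). With 1 library per tissue, the tissue, the calf, and the preparation behind the NB colon value cannot be told apart. Whether these cells lay in the colon wall or came with another tissue of the same calf, or with a sample handled beside it, was not tested, so 2.46% is a share of the library.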

How the data were processed

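The authors made 10x Genomics 3′ libraries, aligned the reads to the ARS-UCD1.2 cattle genome, and counted UMIs with CellRanger 3.1.0; the annotation release is not given in the sources used here. The deposited files are raw UMI counts per gene and barcode, with 27270 genes in each of the 15 libraries. Barcodes were kept at 500 to 4000 genes and under 50000 UMIs, with no limit on mitochondrial UMIs (37 genes). Doublets were kept; a scrublet score, at 0.8% per 1000 barcodes, would remove 185 barcodes, 1 of them a member. Samples were grouped by tissue and stage as the labels give them.

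UMIs were summed per group and compared as CPM with exact Poisson intervals, a pseudocount of 5 CPM, a minimum of 10 CPM, and a 4-fold limit. No test was run, since each group is 1 library and cells are not replicates. The calling script was tested on simulated data. Shares have Clopper-Pearson intervals, and a count of 0 allows up to 3 counts. Clusters used Leiden (resolution 1 for the library and 0.5 for the members) in scanpy 1.11.5, with SciPy 1.17.1. Fibroblast and epithelial barcodes had 2 or more of 4 markers and no *PTPRC* or *CD3E*, and B cell and macrophage barcodes 2 or more of their markers and no *CD3E*.

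The genes named were the 4 rule genes, the genes of the lists, the 15 genes with a symbol that had the highest and the 15 that had the lowest ratio, and the 10 most like the rule genes. The members and lists were chosen with earlier results of these data known. A gene in more than 1 list counts in each, and the rule genes were left out of every count and list. Settings varied are given in the closing section. Some genes are not reported here.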

Additional observations from a re-analysis of the deposited data

How the results depend on the processing

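The analysis rests on 1 library with 612742 UMIs in the members, where a count of 0 allows a level of up to 4.90 CPM (3 UMIs), and levels of 1 to 3 UMIs are imprecise. No paired analysis was possible because both groups compared are barcodes of the same single library and no result comes from a test. Over 13 settings, 112 of 127 recomputed values were counted as unchanged. For shares and list medians this meant within a counting interval, and for counts within 1.5 times the main count. For the median of all genes it meant only the same sign. The medians of the 5 main lists kept their sign in each setting that gave one. The interval of a list median was the counting half-width of the middle gene of the list alone. For the cytotoxic and maturation lists it (2.84 and 2.86) exceeded the medians, so that band sets little limit on them. Requiring 3 rule genes left 55 members (1.15% of barcodes). A pseudocount of 1 CPM gave 309 higher and 370 lower genes, since low genes then pass the limit, and a minimum of 50 CPM gave 109 lower genes. With no minimum the median of the cortical thymocyte list was 0.64, that of selection and maturation -0.89, and that of all genes -0.061, and scaling by the median ratio took the latter to -0.0086. In a comparison added after seeing the data, of the 111 members of the main cluster with CD3E barcodes outside it, 284 genes were higher and 321 lower, and the medians were 1.94 (cortical thymocyte), 1.69 (DNA replication), and 3.15 (mitosis), with 46 dividing barcodes among the 73 left out of the contrast group. Thinning to 2000 UMIs, which also left out 35 shallower members, took the share with CD4 and CD8 from 39.0% to 26.5%, and that with CD8 and no CD4 from 33.1% to 24.1%. The same 83 members had both in 26 before thinning and 22 after.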
